A study of Homo sapiens with 4 samples.

Results

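The genes described are the sensors of endoplasmic reticulum (ER) stress, the proteases that process them, the transcription factor XBP1, the kinases that phosphorylate the translation factor eIF2alpha, and eIF2alpha itself. They were taken by name as ERN1, XBP1, ATF6, MBTPS1, MBTPS2, EIF2AK1, EIF2AK2, EIF2AK3, EIF2AK4 and EIF2S1, which are 10 genes with 1 probe each among 14297 gene probes. Their mRNA was measured in K562, a human erythroleukemia cell line grown in culture, after 4 h with the thalidomide analog AC-1041 and in control cells. The sample labels call the control cells untreated, whereas the methods name a DMSO control, and the labels give no dose. Each of 4 two-colour arrays carried RNA of treated cells and RNA of control cells, with the treated RNA in Cy5 on arrays 1 and 2 and in Cy3 on arrays 3 and 4. The methods state that quadruplicate samples and controls were collected for each compound, and that the arrays were run in quadruplicate with a dye swap. Neither labels nor methods say whether these samples were separate cultures, which of them each array carried, or whether dye-swapped arrays shared RNA. The spread between arrays may therefore be technical. The main test fits a term for the dye, so its p-values measure only the spread left between arrays of the same dye orientation.

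Unfolded protein in the ER lumen is sensed by the membrane proteins IRE1 (gene ERN1), PERK (gene EIF2AK3) and ATF6. Activated IRE1 cuts a short intron out of XBP1 mRNA, and the spliced mRNA encodes an active transcription factor for genes of protein folding and secretion. PERK phosphorylates eIF2alpha (gene EIF2S1), which lowers general translation while the mRNA of ATF4 is translated more. ATF6 moves to the Golgi, where the proteases encoded by MBTPS1 and MBTPS2 release its active part. The other eIF2alpha kinases answer to other signals: HRI (EIF2AK1) to haem shortage, which matters most in erythroid cells, PKR (EIF2AK2) to double-stranded RNA, and GCN2 (EIF2AK4) to uncharged tRNA. These proteins are activated mainly by processing and phosphorylation, whereas the arrays measured mRNA.

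Each value below is the log2 ratio of treated to control signal on an array, so that a value of 0 is no difference. Of the 10 genes, 8 had a probe bright enough to be tested. With limma and a term for the dye, 4 of the 8 (50%) were higher after AC-1041 at the threshold, an adjusted p under 0.05. These were XBP1, EIF2AK3, EIF2AK4 and MBTPS1. The limma test called 0 of the 8 lower, and 0 at an unadjusted p under 0.05. Over the 8852 probes tested, 24.3% were higher and 13% lower (37.4% in either direction), so that 65.2% of all calls were higher (79.5% with median centring in place of loess). The 8 genes had a median log2 ratio of 0.19, beside 0.02 over all probes tested. XBP1 alone among the 4 was higher on every array; of all probes tested, 13% were both called higher and higher on every array. Without the dye term, limma called 0 of the 8 genes (1 at an unadjusted p under 0.05) and 0.627% of all probes. EIF2AK4 and MBTPS1 had opposite directions in the different dye orientations, as did 41.3% of all probes tested. Dye term and array quality moved together, which touches every value given here: arrays 3 and 4 had between 8982 and 9515 gene probes well above background per channel, and arrays 1 and 2 between 5941 and 7403. The log2 ratios of all probes correlated at 0.81 between arrays 1 and 2 and at 0.94 between arrays 3 and 4, and at -0.29 to -0.12 between arrays of different orientation. The dye and the quality of the arrays cannot be told apart. K562 identity was read from erythroid markers, of which 7 of 9 on the array were well above background in both channels of all arrays. Of 11 markers of other lineages, 3 were so and 5 were not well above background in any channel. In treated cells 5 of 9 erythroid markers tested were lower (median log2 ratio -0.29), as were 4 of 6 markers of other lineages tested (median -0.23), and their part in the results was not tested.

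**Figure D1:**
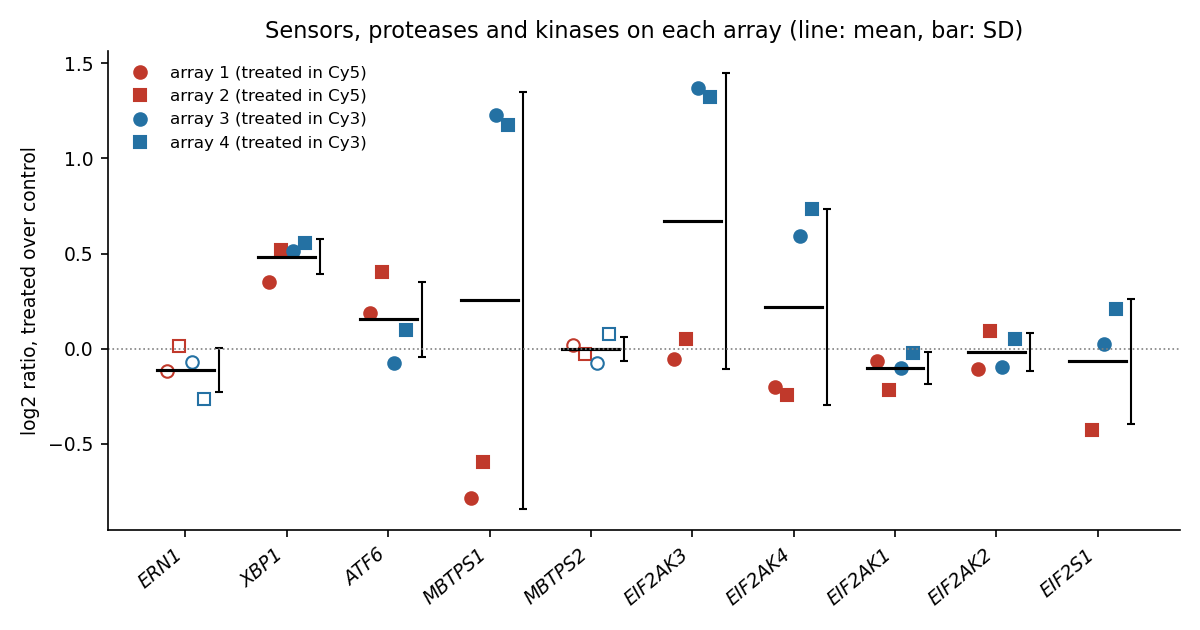
Log2 ratio of treated to control signal (vertical axis) for each of the 10 genes (horizontal axis) on the 4 arrays, with the mean as a line and the SD as a bar; red points are arrays with treated RNA in Cy5, blue points those with treated RNA in Cy3, and open points are genes too dim to test. XBP1 lies between 0.35 and 0.55 on all arrays, whereas the red and blue points of MBTPS1, EIF2AK3 and EIF2AK4 lie apart.

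XBP1, the target of the IRE1 endoribonuclease, was higher in treated cells. On arrays 1 to 4 its log2 ratio was 0.35, 0.52, 0.52 and 0.55. The ratios lay close together in both dye orientations, with means of 0.43 and 0.54, and the dye term did not pass the threshold (adjusted p = 0.536). The normalised log2 intensity was 12.51, 12.92, 12.72 and 12.96 in the treated channels of arrays 1 to 4 and 12.16, 12.40, 12.20 and 12.40 in the control channels. All treated channels lay above all control channels, a pattern held by 9.74% of the probes tested. The fitted log2 ratio was 0.48 (SE 0.067, 95% interval 0.33 to 0.64), which is a 1.40-fold higher signal, with a limma adjusted p of 0.000848. A sign-flip test on the 4 ratios alone gave an exact two-sided p of 0.125, the smallest that 4 arrays allow. XBP1 had a single probe, so spliced and unspliced mRNA were not told apart and the value says nothing of IRE1 activity.

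The XBP1 probe lies at chr22:27523106-27523165 on hg18, and its sequence is printed because this is the stretch of mRNA behind the value above. The XBP1 promoter is printed because XBP1 is a textbook target of ATF6, through the ER stress response element, which is CCAAT and CCACG with 9 bases of any kind between them. The 250 bases before a XBP1 start site in RefSeq (GRCh38.p14, chr22:28800570-28800819, minus strand) hold that element from 52 to 34 bases before the start, shown in capitals. The same element stands in the promoter of HSPA5 from 66 to 48 bases before its start, and a shorter element, ATTGG and CCACG with 1 base between them, stands in that of HERPUD1 from 117 to 107 bases before its start.
XBP1 probe, hg18: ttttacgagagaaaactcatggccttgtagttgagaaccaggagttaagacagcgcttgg
XBP1 promoter: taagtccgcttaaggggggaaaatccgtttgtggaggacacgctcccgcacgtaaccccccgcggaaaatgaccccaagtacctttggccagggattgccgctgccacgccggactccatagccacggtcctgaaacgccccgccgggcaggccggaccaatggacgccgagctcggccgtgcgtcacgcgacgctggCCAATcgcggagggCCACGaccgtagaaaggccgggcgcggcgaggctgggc
XBP1 element: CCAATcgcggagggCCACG
HSPA5 element: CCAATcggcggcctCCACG
HERPUD1 element: ATTGGgCCACG

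Both strands were searched, from 250 bases before to 50 after each start, in 10 promoters of 9 of the 10 genes. The element of CCAAT and CCACG was found in 27 of all 35116 promoters (0.0769%), and among the 9 genes searched in XBP1 only. The element of ATTGG and CCACG (0.0541% of all promoters), the unfolded protein response element core TGACGTGG (0.729%) and the C/EBP-ATF response element, TGATG and AA with 1 base between them (3.62%), matched the promoter of none of the 9 genes. The core of the interferon-stimulated response element, GAAA and GAAA with 2 bases between them (3.57% of all promoters), matched in EIF2AK2, a gene known to be induced by interferon. These matches describe letters in a window and do not show that a factor was bound.

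ERN1, the gene of IRE1, gave no measurement of a change. Its probe (chr17:59561523-59561582, hg18) was not well above background in any treated channel and was so in the control channel of array 4 only. The log2 ratios of -0.12, 0.01, -0.07 and -0.26 on arrays 1 to 4 are therefore ratios of signals near background, and no fold is given. Signal near background does not show that the mRNA was absent.

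ATF6, the sensor that is itself a transcription factor, did not pass the test. Its log2 ratio was 0.19, 0.40, -0.07 and 0.10 on arrays 1 to 4. Both arrays with treated RNA in Cy5 were above 0, and arrays 3 and 4 lay on either side of it. The control channel of array 2, the array with the highest ratio, was not well above background. The fitted log2 ratio was 0.15 (SE 0.072, limma adjusted p = 0.128), with a 95% interval from -0.01 to 0.32. Without array 1 it was 0.21 with an adjusted p of 0.0352. The probe lies at chr1:160198866-160198925 on hg18.

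MBTPS1, the protease that makes the first cut in ATF6, had the widest spread of the 10 genes. The log2 ratio was -0.79, -0.60, 1.23 and 1.18 on arrays 1 to 4. The ratio was below 0 with treated RNA in Cy5 (mean -0.69) and above 0 with treated RNA in Cy3 (mean 1.20), in both cases with both channels well above background. On each of the 4 arrays the Cy3 channel was the brighter one. The fitted log2 ratio was 0.25 (SE 0.068, 95% interval 0.10 to 0.41, limma adjusted p = 0.0192), smaller than the dye term of -0.95 for Cy5 over Cy3 (adjusted p = 2.04e-05). The call was lost without array 3 (adjusted p = 0.123) and without array 4 (adjusted p = 0.115). The probe lies at chr16:82644977-82645036 on hg18.

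MBTPS2, the protease that makes the second cut within the membrane, was not well above background in either channel of any array. Its log2 ratios lay between -0.07 and 0.08, and no change could be read from them. The probe lies at chrX:21800937-21800996 on hg18.

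**Figure D2:**
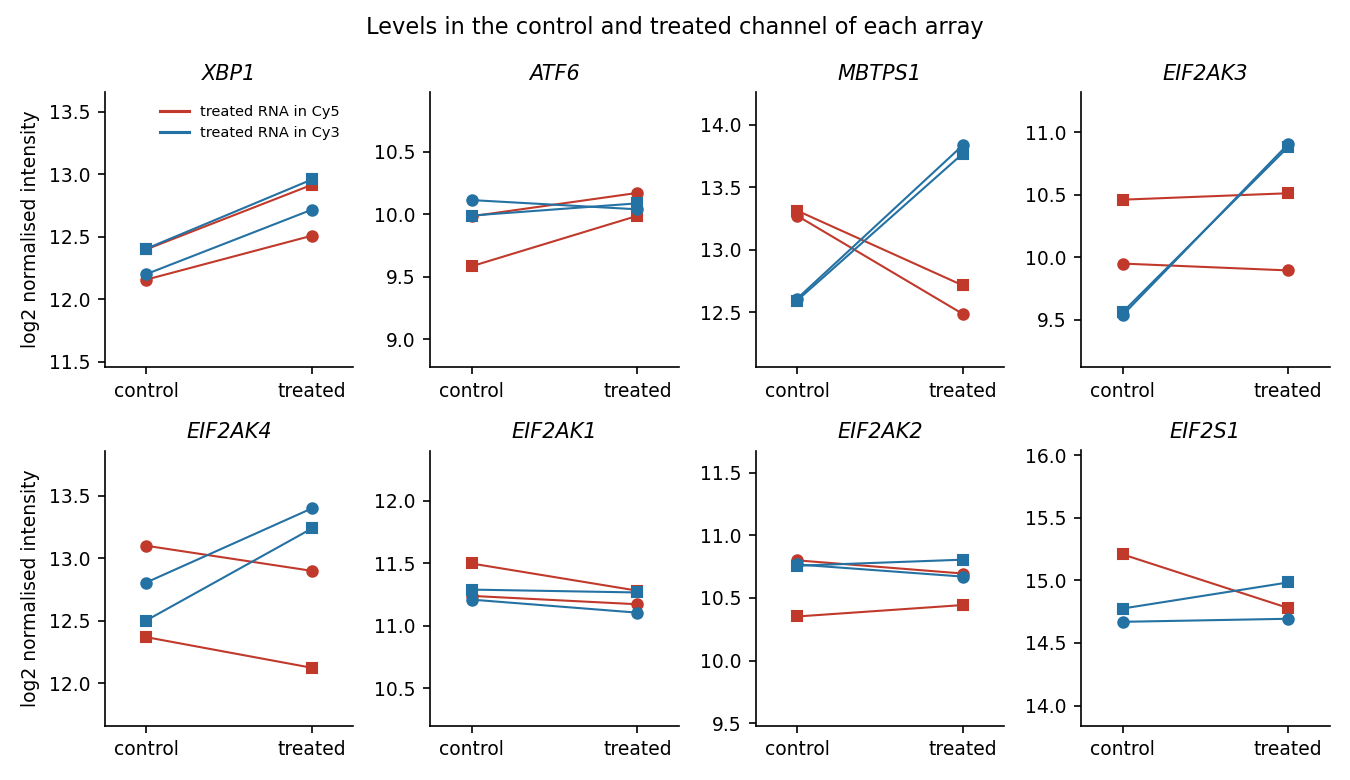
Normalised log2 intensity (vertical axis) in the control and the treated channel of each array for the 8 genes tested, with a line joining the channels of an array; every panel spans the same range, circles are arrays 1 and 3 and squares arrays 2 and 4. The lines of XBP1 all rise, and those of MBTPS1 and EIF2AK4 fall on the red arrays (treated in Cy5) and rise on the blue arrays (treated in Cy3).

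EIF2AK3, the gene of PERK, had the highest fitted ratio of the 10 genes, and it came from arrays 3 and 4. Arrays 1 to 4 gave log2 ratios of -0.05, 0.05, 1.37 and 1.32. The mean was 0.00 with treated RNA in Cy5 and 1.35 with treated RNA in Cy3. On arrays 1 and 2 the control channel was not well above background, and on arrays 3 and 4 both channels were. The normalised log2 intensity was 9.89, 10.51, 10.91 and 10.88 in the treated channels of arrays 1 to 4 and 9.95, 10.46, 9.54 and 9.56 in the control channels. Treated and control levels overlapped over the 4 arrays. The fitted log2 ratio was 0.67 (SE 0.065, 95% interval 0.52 to 0.82), a 1.59-fold higher signal with a limma adjusted p of 0.00016, and the dye term was of like size at -0.67 (adjusted p = 8.45e-05). The SE describes the spread left after the dye term, and the SD over the 4 arrays was 0.78. The probe lies at chr2:88637697-88637756 on hg18.

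EIF2AK4, the gene of GCN2, passed the test with opposite directions in the dye orientations. On arrays 1 to 4 the ratio was -0.20, -0.25, 0.59 and 0.74. Treated cells were lower on arrays 1 and 2 and higher on arrays 3 and 4, with all channels well above background. The fitted log2 ratio was 0.22 (SE 0.066, 95% interval 0.07 to 0.37, limma adjusted p = 0.0303), beside a dye term of -0.44 (adjusted p = 0.000711). The call was lost without array 3 (adjusted p = 0.0949) and without array 4 (adjusted p = 0.228). The probe matches chr15:38113937-38114578 on hg18, a span of 642 bases for a probe of 60 bases, and is therefore listed across an intron.

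EIF2AK1, the gene of HRI, was below 0 on every array without passing the test. The values on arrays 1 to 4 were -0.07, -0.22, -0.10 and -0.02, and 23.4% of all probes had the same direction on all 4 arrays. The fitted value was -0.10 (limma adjusted p = 0.26), with a 95% interval from -0.26 to 0.05. With median centring in place of loess it was 0.024. The probe lies at chr7:6028924-6028983 on hg18.

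EIF2AK2, the gene of PKR, lay on both sides of 0. Its log2 ratio was -0.11, 0.09, -0.10 and 0.05 on arrays 1 to 4, so that each dye orientation held a value of either sign. The fitted value was -0.02 (limma adjusted p = 0.88), with a 95% interval from -0.18 to 0.14. The probe lies at chr2:37181088-37181147 on hg18. Among the kinases, the dye term passed the threshold for EIF2AK3 and EIF2AK4 and not for EIF2AK1 (adjusted p = 0.633) or EIF2AK2 (adjusted p = 0.923). In all, it passed for 4 of the 8 genes tested (50%), beside 58.2% of all probes.

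EIF2S1, the substrate of all these kinases, was measured on 3 arrays, since its spot on array 1 was marked as an outlier and left out. The log2 ratio was -0.43 on array 2, 0.02 on array 3 and 0.21 on array 4. The single value with treated RNA in Cy5 lay below both values with treated RNA in Cy3. The fitted log2 ratio was -0.16 (SE 0.088, 95% interval -0.36 to 0.05, limma adjusted p = 0.202), with a dye term that passed the threshold (adjusted p = 0.0303). With the spot of array 1 kept the fitted value was -0.09, and without the dye term it was -0.07. The fit weights the orientations equally and so gives array 2 as much weight as arrays 3 and 4 together. The phosphorylation of eIF2alpha was not measured. Its probe matches chr14:66917212-66918098 on hg18, a span of 887 bases, and like that of EIF2AK4 is listed across an intron. Both probe sequences are printed because genomic positions alone do not give them.
EIF2S1 probe, hg18: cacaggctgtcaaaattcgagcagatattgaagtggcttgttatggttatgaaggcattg
EIF2AK4 probe, hg18: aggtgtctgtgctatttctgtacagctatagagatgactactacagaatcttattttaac

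**Figure D3:**
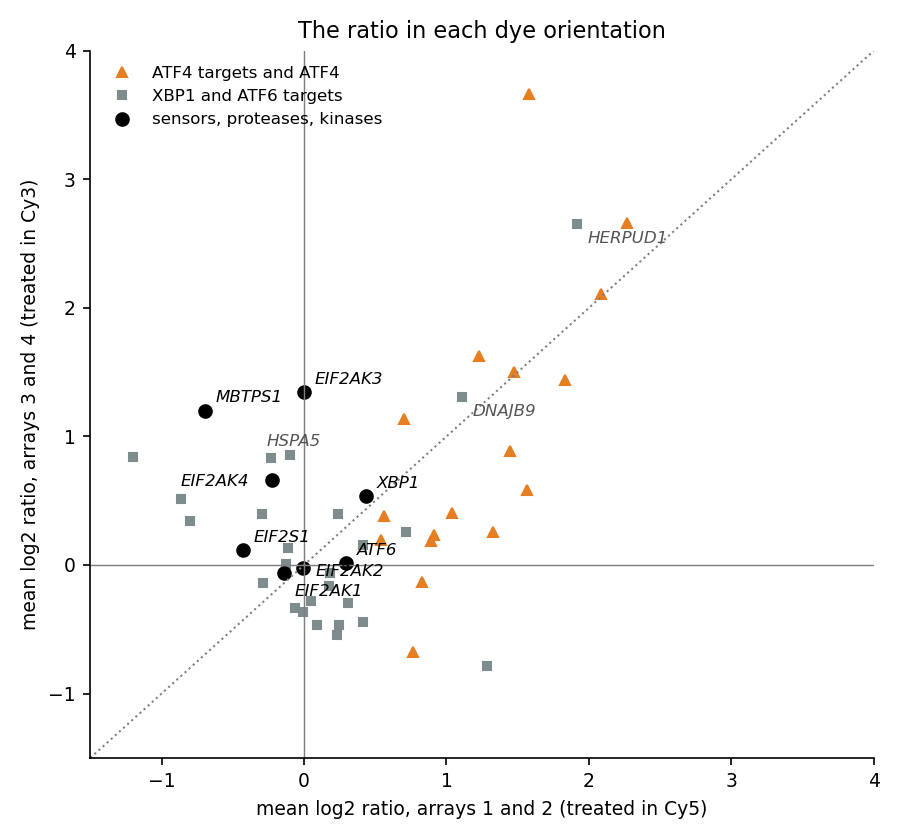
Mean log2 ratio on arrays 3 and 4 (treated in Cy3, vertical axis) against that on arrays 1 and 2 (treated in Cy5, horizontal axis) for the 8 genes tested (black) and for ATF4 with its targets (orange) and the targets of XBP1 and ATF6 (grey); a gene with the same ratio in both orientations lies on the dotted line. XBP1 lies near that line at 0.43 and 0.54, whereas MBTPS1, EIF2AK3, EIF2AK4 and EIF2S1 lie above it. The horizontal value of EIF2S1 is that of array 2 alone.

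Most genes around eIF2alpha did not pass the test, and those that did were PPP1R15A, PPP1R15B and EIF2S2. In the list of the eIF2 complex, its exchange factor and its phosphatase, 3 of 14 genes tested were higher by limma (21.4%, against 24.3% of all probes) and 0 lower, beside 1 lower at an unadjusted p under 0.05, and the median log2 ratio was 0.01. PPP1R15A, the regulatory subunit of the phosphatase that is induced under stress, had log2 ratios of 0.97, 1.68, 0.30 and 0.21 on arrays 1 to 4. It was above 0 on every array and higher on arrays 1 and 2, with a fitted value of 0.79 (SE 0.11, limma adjusted p = 0.000789), or 1.73-fold. PPP1R15B, the constitutive subunit, had log2 ratios of 0.32, 0.38, 0.75 and 0.87 and a fitted value of 0.58 (SE 0.065, limma adjusted p = 0.000323), or 1.49-fold. Of the remaining subunits of eIF2, EIF2S2 had ratios of -0.70, -0.82, 1.37 and 1.37 and passed at 0.31 (limma adjusted p = 0.00726), with opposite directions by dye as in MBTPS1. EIF2S3 had a fitted value of 0.01 (limma adjusted p = 0.918). Of the 5 genes of the exchange factor, EIF2B1 to EIF2B5, 0 passed with limma, and 0 at an unadjusted p under 0.05.

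Among partners and regulators of the sensors, 6 of 22 genes tested were higher (27.3%, against 24.3% of all probes). There was 1 lower (4.55%, against 13%), and the median log2 ratio was 0.08. HSP90AA1, a cytosolic chaperone known to bind several of these kinases, had ratios of 0.90, 1.21, 0.56 and 0.94 on its brighter probe. The fitted log2 ratio was 0.90 (SE 0.087, limma adjusted p = 0.000161). Another probe of HSP90AA1, with array 1 marked as an outlier, gave -0.13, 1.94 and 1.85 on arrays 2 to 4. That probe had a fitted log2 ratio of 0.88 (limma adjusted p = 0.000263), beside a dye term of -1.01 (adjusted p = 7.87e-05). HSP90AB1, a relative of HSP90AA1, was higher by 0.39 on the log2 scale and above 0 on all 4 arrays. MAPK8, a kinase downstream of IRE1, was higher by 0.42, with ratios of 0.02, 0.06, 0.93 and 0.69. Its value thus came mostly from arrays 3 and 4, and its limma dye term passed the threshold (adjusted p = 0.00203). DNAJC3, an ER co-chaperone known as an inhibitor of PERK and PKR, was higher by 0.32, with ratios of 0.04, 0.43, 0.33 and 0.47. Neither channel of DNAJC3 was well above background on array 2. MAP3K5, which links IRE1 to MAPK8, was the gene lower in treated cells, with a fitted log2 ratio of -0.31 (limma adjusted p = 0.0102). Its ratios were -0.71, -0.80, 0.26 and 0.02, so that arrays 1 and 2 alone were below 0. HSPA5, the chaperone BiP that binds the sensors in unstressed cells, passed at 0.30 (SE 0.066, limma adjusted p = 0.00896), with ratios of -0.27, -0.20, 0.76 and 0.90. It was thus lower with treated RNA in Cy5 and higher with treated RNA in Cy3.

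**Figure D4:**
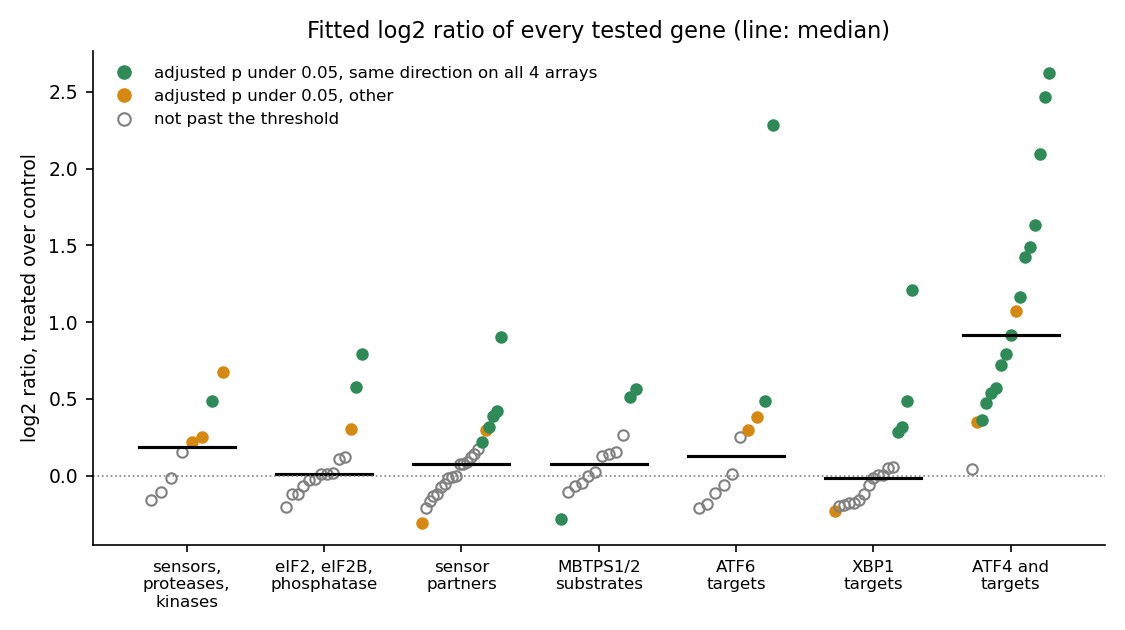
Fitted log2 ratio of treated to control signal (vertical axis) of each gene tested, by list (horizontal axis), with the median as a line; filled points passed the adjusted p of 0.05, green ones with the same direction on all 4 arrays and orange ones without, and open points did not pass. The median is 0.92 for ATF4 and its targets and lies between -0.02 and 0.19 in the other lists. The list of MBTPS1 and MBTPS2 substrates also holds INSIG1 and INSIG2, which are not substrates.

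The targets downstream of the sensors were counted in the same fit. These lists share genes with each other, and some of their genes were named by the study from these same arrays, so their counts are not independent evidence of a direction. Of ATF4 and the genes known to follow eIF2alpha phosphorylation, 16 of 17 tested were higher (94.1%, against 24.3% of all probes). Of the 16, 14 were higher on all 4 arrays, and the median log2 ratio of the list was 0.92. The array held 21 genes of this list. ASNS and VLDLR were too dim to test, and CEBPB and DDIT4 had too few unmarked spots. With no filter on dim probes 16 of 19 were higher (median 0.79), and with outlier spots kept 18 of 19 (median 0.92). ATF4 itself had ratios above 0 on all 4 arrays, from 0.28 on array 3 to 1.08 on array 1, and a fitted log2 ratio of 0.72 (SE 0.070, limma adjusted p = 0.000164), or 1.65-fold. The largest fitted ratios in that list were 2.62 for SLC7A11, the cystine transporter subunit, 2.46 for CTH, a cysteine-making enzyme, 2.10 for ATF3, 1.64 for DDIT3, the transcription factor CHOP, and 1.49 for CEBPG. All 5 of these were above 0 on all 4 arrays. SLC7A11 had ratios of 1.72, 1.44, 3.70 and 3.63 on arrays 1 to 4, beside a dye term of -1.04 (limma adjusted p = 1.86e-05). The dye terms of the rest did not pass the threshold. The control channels of SLC7A11 and ATF3 were not well above background on array 2. Of the 4 eIF2alpha kinases, EIF2AK3 and EIF2AK4 passed the threshold without being above 0 on every array, and EIF2AK1 and EIF2AK2 did not pass it.

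Of the genes known to follow spliced XBP1, 4 of 17 tested were higher (23.5%, against 24.3% of all probes). There was 1 lower (5.88%, against 13%), and the median log2 ratio was -0.02. At an unadjusted p under 0.05, 4 were higher and 4 lower, and without array 1 the adjusted counts were also 4 higher and 4 lower. DNAJB9, an ER co-chaperone known to act on IRE1, had ratios of 1.08, 1.14, 1.30 and 1.32 and a fitted log2 ratio of 1.21 (SE 0.064, limma adjusted p = 1.09e-05), or 2.31-fold. SEC23B, a coat protein of vesicles leaving the ER, was higher by 0.48 on the log2 scale and SSR2, of the translocon, by 0.28, whereas SSR1, of the same complex, had a fitted value of -0.23 (limma adjusted p = 0.0437) with ratios of -0.73, -0.87, 0.19 and 0.49. The signs of SSR1 therefore opposed each other by dye.

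Of the genes known to follow ATF6, 4 of 10 tested were higher by limma (40%, against 24.3% of all probes) and 0 lower. At an unadjusted p under 0.05, 2 were lower, and the median log2 ratio of the list was 0.13. XBP1 is one of the 4 higher. HERPUD1, a component of ER-associated degradation, had ratios of 1.87, 1.97, 2.58 and 2.72 and a fitted log2 ratio of 2.28 (SE 0.067), or 4.87-fold. SEL1L, of the same pathway, passed at 0.38 (limma adjusted p = 0.00721), but was well above background in both channels on array 4 only. HERPUD1 and XBP1 were higher on all 4 arrays, and HSPA5 and SEL1L were not.

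In the list of MBTPS1 and MBTPS2 substrates, their escorts and the retention proteins INSIG1 and INSIG2, 2 of 12 genes tested were higher. That is 16.7%, against 24.3% of all probes, and 1 was lower, with a median log2 ratio of 0.08. The 2 higher were INSIG1 and INSIG2, which are not substrates. INSIG1, which retains the sterol sensors in the ER, was higher by 0.57 on the log2 scale (SE 0.073, limma adjusted p = 0.000584) with ratios of 0.43, 0.64, 0.49 and 0.71. INSIG2 was higher by 0.52 with ratios of 0.01, 0.31, 0.79 and 0.95. Neither channel of INSIG2 was well above background on array 2, and its limma dye term passed the threshold (adjusted p = 0.00426). CREB3L2, a membrane-bound factor cut in the manner of ATF6, was lower, with a fitted log2 ratio of -0.28 (limma adjusted p = 0.0195) and ratios below 0 on all 4 arrays. Of all probes tested, 6.13% were both called lower and below 0 on every array.

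**Figure D5:**
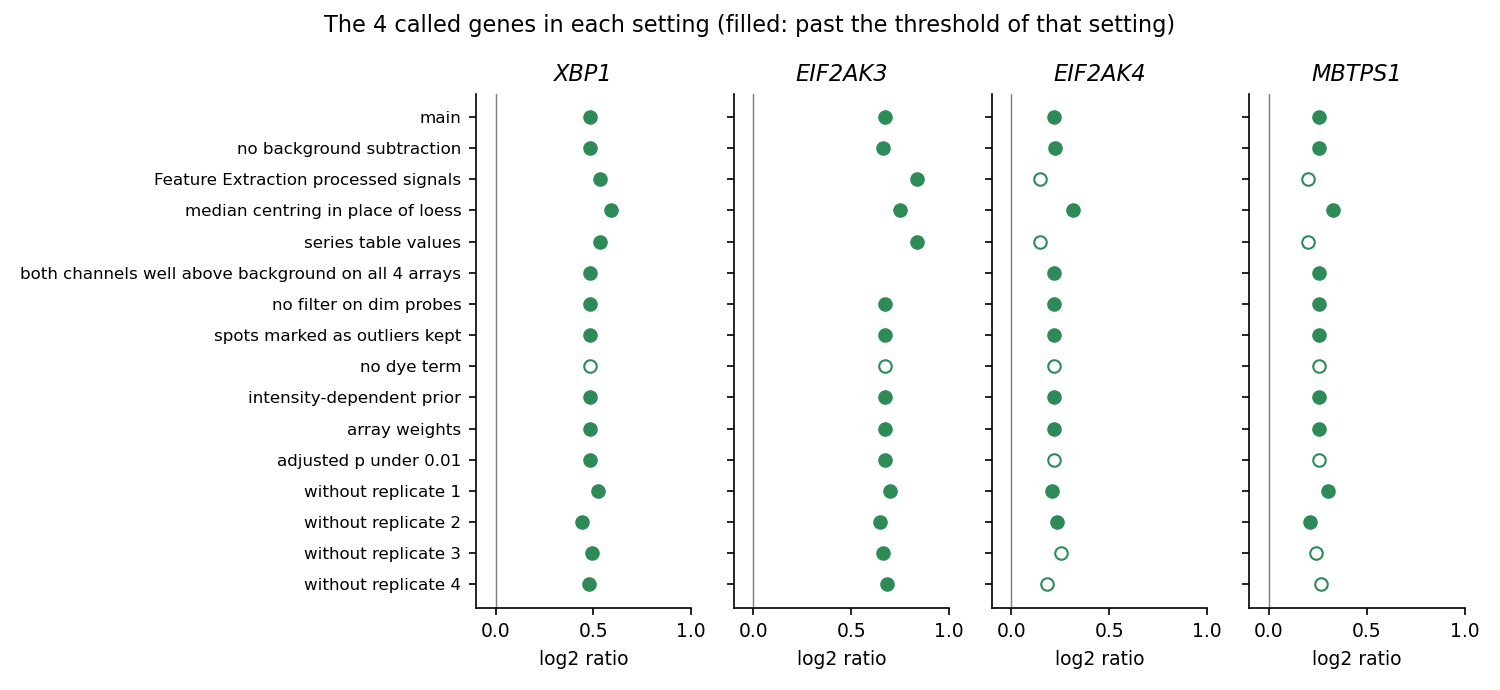
Fitted log2 ratio (horizontal axis) of XBP1, EIF2AK3, EIF2AK4 and MBTPS1 under each way of processing the arrays (vertical axis); filled points passed the threshold of that setting and open points did not. The points of XBP1 stay between 0.44 and 0.59 and are filled except without the dye term, and EIF2AK3 was not tested where both channels had to be well above background on all 4 arrays.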

How the data were processed

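Total RNA was amplified, labelled and hybridised by the authors on 4 two-colour Agilent arrays, scanned and quantified with Feature Extraction 9.5.1.1. The deposited files hold the intensity of each spot and its local background in both channels. The deposited series table holds log10 ratios, which match Feature Extraction's own once the sign is turned for arrays 3 and 4. Background was corrected by normexp (offset 50) over all spots, and each array was normalised by loess (span 0.3) with control spots and outlier spots at weight 0. Outlier spots were left out (1.57% to 8.08% of probes). Levels per channel were then scaled between arrays by Aquantile. A probe was tested if a channel was well above background on 2 or more arrays and if 3 or more spots were unmarked, which left 8852 probes. The tests used limma 3.58.1 (R 4.3.3), with treatment and dye as terms, and p-values were adjusted by Benjamini-Hochberg over these probes. The step was tested on simulated ratios with independent noise, in which 200 of 8852 probes were changed by a log2 ratio of 1. It recovered 88% of these, and 5.88% of its calls were false. The simulation held no smaller changes and no difference in quality between dye orientations, so it cannot speak to either. With 4 arrays and 2 residual degrees of freedom, the number of arrays limits the precision. All arrays lay on 1 slide with 1 scan date, which gave no block to fit.

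Names came from the transcript accessions through a RefSeq table, which named 12002 of 14297 probes and 5 of the 10 genes; the others keep the name in the files. The files give the probe positions (hg18), and promoters are RefSeq's (GRCh38.p14). The genes and lists were chosen with earlier results of these data known. All 10 genes are named, with up to 5 genes past the threshold per list by size of ratio, and with EIF2S2, EIF2S3, PPP1R15A, PPP1R15B, ATF4, DDIT3, HSPA5 and DNAJB9 whatever their value; the 5 exchange factor genes fall outside that rule. Where a listed gene had several probes, the brightest tested one stood for it.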

Additional observations from a re-analysis of the deposited data

Results flagged for a closer look

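Among 91 genes looked at, SESN2, an ATF4 target, had 1 array far from the others: array 2 stood highest with a log2 ratio of 1.91, beside 0.97, 0.79 and 0.98 on arrays 1, 3 and 4, and the gap was 0.836 of the whole range. Chance gives such a gap in about 1 of 20 groups, and here 1 of 91 genes had it and none of the sensors, proteases and kinases did. SESN2 was higher on all arrays.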

How the results depend on the processing

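Over 15 alternatives, the log2 ratio of XBP1 ranged from 0.44 to 0.59 (0.44 to 0.53 over the arrays left out) and lost the threshold only without the dye term (0.48, adjusted p = 0.122). EIF2AK3 could be tested in 14 and also lost it only there (0.67, adjusted p = 0.408). EIF2AK4 and MBTPS1 lost it with the signals processed by Feature Extraction (0.15 and 0.20), with the series table (0.15 and 0.20), at an adjusted p of 0.01 and without the dye term (0.22 and 0.25), and without array 3 or 4 (0.18 to 0.26 for EIF2AK4 and 0.21 to 0.30 for MBTPS1 over all arrays left out). ATF6 passed it without array 1 (0.10 to 0.21 over the arrays left out). EIF2AK1 turned sign with median centring (0.024). EIF2AK2 did so with median centring (0.073), without array 1 (0.034) and without array 3 (0.021), with a range of -0.065 to 0.034 over the arrays left out. The cause was not tested. EIF2S1 could not be tested without array 2, 3 or 4, and the filter requiring both channels well above background left out EIF2AK3 and ATF6.

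Without the dye term, limma called 0 of the 8 sensors, proteases and kinases (1 at an unadjusted p under 0.05), and 56 of 8937 probes in all (0.627%) beside 3307 with it. The lists then held 0 calls for the eIF2 complex and phosphatase, 0 for the sensor partners and 0 for the MBTPS1 and MBTPS2 substrates. At an unadjusted p under 0.05 these lists held 2, 3 and 2. The name MBTPS1 and MBTPS2 substrates stands here for the list that also holds INSIG1 and INSIG2. The ATF4 targets held 5 calls, the XBP1 targets 1 and the ATF6 targets 1. Of the 8 genes, 2 passed with processed signals, 2 with the series table, 2 at an adjusted p of 0.01, and 1 (XBP1) where the direction also had to be the same on all 4 arrays, a rule chosen after seeing the data. That rule left 2 ATF6 targets. Among the XBP1 targets, 3 were higher and 3 lower where both channels had to be well above background, and 4 higher and 3 lower with the intensity-dependent prior. They held 3 calls with processed signals, 3 with the series table and 2 at an adjusted p of 0.01, and the sensor partners 4 with the series table and 4 at 0.01. Over the arrays left out, calls ranged from 2 (without array 3 or 4) to 5 (without array 1) of the 8 genes, from 2 to 8 XBP1 targets, 2 to 10 sensor partners, 2 to 6 ATF6 targets, 2 to 6 MBTPS1 and MBTPS2 substrates, 2 to 4 genes of eIF2 and its phosphatase, and 11 to 16 ATF4 targets. Over all probes too, the share called was highest without array 1 and lowest without array 4, so these shifts were not particular to the genes described. Leaving out an array leaves 1 array in its dye orientation, which is assumed to vary like the others. Treated and control RNA were paired on each array, and the tests used that ratio within the array. No pairing between arrays was fitted, since all 4 arrays belong to 1 group.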
